A study of Homo sapiens with 12 samples.

Results

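The replication-dependent histone genes are the multicopy genes that encode the linker histone H1 and the core histones H2A, H2B, H3 and H4 used to package newly made DNA. They were taken as every protein-coding row of the count files whose gene symbol was H1-1 to H1-6, or H2AC, H2BC, H3C or H4C followed by a number, which gave 66 of 46350 named genes. They comprised 6 genes of type H1, 16 of H2A, 17 of H2B, 13 of H3 and 14 of H4. On GRCh38, 55 of them lay on chromosome 6 and 11 on chromosome 1. The study measured RNA of SKOV3, a human epithelial ovarian cancer line labelled as sensitive to cisplatin, and of SKOV3/DDP, labelled as its resistant counterpart. Each line was grown without or with paeonol (PAE), a plant phenol, with 3 libraries in each of the 4 groups and no further treatment named. The PAE dose and treatment time of these libraries are not given in the sources used here. The paper's methods state in general that experiments were biologically independent, but they describe the sequencing as earlier data and the labels do not say whether its replicates were separate cultures, so the spread between libraries may be technical. RNA was captured on poly-T beads before library preparation, and the 12 libraries held between 14610008 and 18263479 counts.

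Histones H3 and H4 form the core tetramer of the nucleosome, dimers of H2A and H2B flank it, and H1 binds the linker DNA. Their replication-dependent genes are transcribed mainly in S phase, when DNA is copied. Most of their mRNAs do not end in a poly(A) tail but in a short stem-loop that is bound by the protein SLBP, and the cut behind it is guided by the U7 snRNP. Some of these genes also give polyadenylated transcripts that run past the stem-loop. Capture on poly-T beads favours the polyadenylated form, so the values below describe mainly that form, and its share of all histone mRNA was not measured. In bulk RNA, fewer cells in S phase and less histone mRNA per cell cannot be told apart.

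To show the element that sets these mRNAs apart, the GENCODE 29 transcripts of each gene were searched for the 16-base stem-loop pattern behind the stop codon. It was found in 28 of the 66 genes, and in 27 of the 28 genes whose longest transcript ran at least 60 bases past the stop codon. H2BC11 was the exception. In 34 genes the annotated transcript ended at the stop codon, so the element could not be seen there. The 28 stem-loops had 6 different sequences and began 22 to 67 bases behind the stop codon, with a median of 35.5. The 5 that follow are those of genes on which the results turn, with the stem-loop in capitals and 5 bases on either side, in the sense of the gene.
H2AC6: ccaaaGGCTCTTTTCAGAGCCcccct
H2BC4: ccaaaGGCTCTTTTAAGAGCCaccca
H3C6: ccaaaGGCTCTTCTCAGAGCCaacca
H3C8: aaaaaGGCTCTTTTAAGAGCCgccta
H4C8: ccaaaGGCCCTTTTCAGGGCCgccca
The sequence in H2AC6 was the most common and was shared by 15 genes, while that of H3C6 was found in this gene alone among the 28.

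The genes also shared letters in front of their starts. RefSeq promoter windows on GRCh38.p14, 250 bases before to 50 after the transcript start, were matched for 61 of the 66 genes and searched on both strands. The octamer ATTTGCAT, which binds the factor POU2F1, was present in 14 of 17 H2B and 11 of 15 H2A promoters, in 1 of 11 H3 promoters and in none of the 6 H1 and 12 H4 promoters. It was present in 1.80% of all 27305 promoters. The CCAAT box was present in 85.2% of the histone promoters against 35.7% of all, and among the H4 promoters in 3 of 12. The letters TATAAA were present in 41 of the 61 against 3264 of all. As examples, the 250 bases before the start are shown for H2BC12, the gene with the most counts (chr6:27146859-27147108, minus strand), and for H2BC17, the gene with the largest fitted rise with PAE in SKOV3/DDP (chr6:27893175-27893424, plus strand). Capitals mark the octamer, CCAAT and TATAAA in either direction, and some of the marks overlap.
H2BC12: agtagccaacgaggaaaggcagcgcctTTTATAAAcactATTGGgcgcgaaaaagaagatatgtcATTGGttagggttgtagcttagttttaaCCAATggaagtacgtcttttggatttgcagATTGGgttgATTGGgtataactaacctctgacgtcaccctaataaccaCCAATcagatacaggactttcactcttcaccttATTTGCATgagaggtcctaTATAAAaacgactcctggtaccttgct
H2BC17: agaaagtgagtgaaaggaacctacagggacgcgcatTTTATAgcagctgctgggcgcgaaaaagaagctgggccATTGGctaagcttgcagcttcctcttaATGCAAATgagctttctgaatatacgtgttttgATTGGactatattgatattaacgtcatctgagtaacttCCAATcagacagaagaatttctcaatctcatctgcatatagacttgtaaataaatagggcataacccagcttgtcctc
A match describes these letters and does not show that a factor was bound.

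Before the values, limits of the libraries are given that touch all of them. Across genes, the deviation from the mean of the 12 libraries was larger at higher GC content in the 3 libraries of untreated SKOV3, with Spearman correlations across 15089 genes of 0.673 to 0.678, and fell in the other 9, at −0.538 to −0.334. The deviations are from a shared mean, so a rise in these 3 libraries goes with a fall in the others. The negative values therefore do not show an opposite GC trend in the 9 libraries themselves. Most histone genes are GC-rich, with a median of 59.3% (44.1% to 67.4%) against 48.6% over all genes. Some with long models were below the median of all genes: H3C6 at 44.1%, H2BC4 and H2BC5 at 47.5% and H2BC21 at 48.0%. No fit could hold this trend as a batch, because it followed the group. Comparisons that use untreated SKOV3 are therefore given both as scaled by TMM, edgeR's default, and after smooth dependence of each library on GC content and length of the genes was taken out, written as the GC and length trend removed. The untreated SKOV3 libraries also had fewer genes with a count (17951 to 18240) than the other 9 (21469 to 23194). The line labels were set against markers. Of 7 intestinal epithelial markers, 5 were tested between the lines, and all 5 were higher in SKOV3/DDP both without and with PAE. Their summed CPM, the usual scaling of counts to the library total, was 556 to 631 in untreated SKOV3/DDP and 199 to 285 with PAE. It was 0.228 to 0.635 in the 6 SKOV3 libraries. Of 9 ovarian epithelial markers, 8 were tested between the lines. Both without and with PAE, 4 were higher and 4 lower in SKOV3/DDP. KRT7, a keratin of ovarian epithelium, averaged 2364 CPM in untreated SKOV3 and 1.23 in untreated SKOV3/DDP. Going the other way, KRT19 averaged 5.02 and 1427 CPM in these groups, and KRT8 2168 and 5545. Summed CPM of 9 ovarian epithelial markers was 5670 to 5886 in SKOV3 and 11350 to 11999 in SKOV3/DDP without PAE, and 3059 to 4277 and 2498 to 3861 with PAE. The part of these line differences in the histone values was not tested. Fibroblast markers summed to 0.755 to 36.7 CPM, leukocyte markers, nearly all CD68, to 20.8 to 114, and endothelial markers to 0.409 to 12.8, and PTPRC was near 0 in every group.

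Histone transcripts made up a small part of the counts, and their sum was highest in SKOV3/DDP with PAE. The 66 genes together held 350, 358 and 404 CPM of the library total in untreated SKOV3, and 247, 223 and 300 in SKOV3 with PAE. They held 197, 205 and 231 CPM in untreated SKOV3/DDP, and 812, 860 and 644 in SKOV3/DDP with PAE. By CPM of library total, each library of SKOV3/DDP with PAE thus lay above all 9 others. The group means were 371 ± 29.3, 257 ± 39.4, 211 ± 18.0 and 772 ± 113 CPM (SD, n = 3) in that order. By type, the H2B sum averaged 203, 164, 144 and 571 CPM, H2A 33.9, 28.3, 27.0 and 97.1, and H4 4.60, 3.52, 3.41 and 13.3. For these types SKOV3/DDP with PAE lay above every other library. H1 and H3 had another order. H1 averaged 102 CPM in untreated SKOV3, 43.2 with PAE, 24.3 in untreated SKOV3/DDP and 63.7 with PAE, and the 3 untreated SKOV3 libraries lay above all others. H3 averaged 26.6, 17.7, 12.5 and 26.6 CPM, and the libraries of untreated SKOV3 and of SKOV3/DDP with PAE overlapped.

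**Figure D1:**
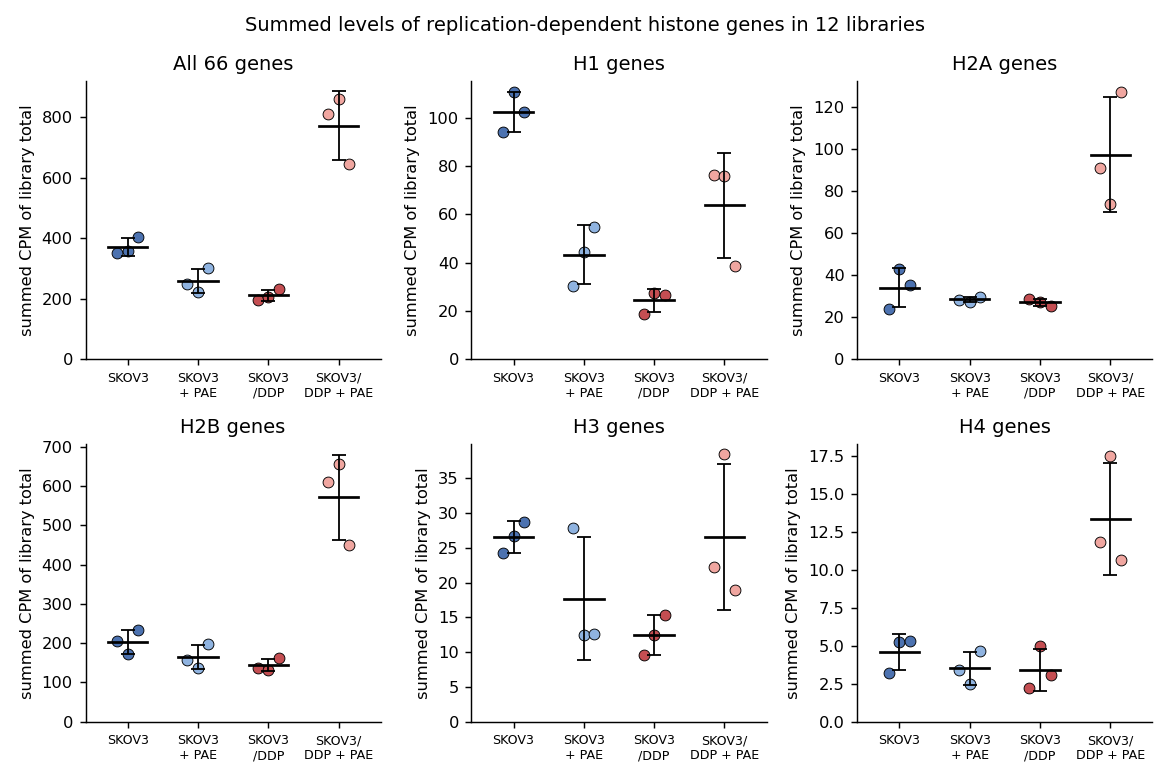
Summed CPM of library total (y axis, from 0) of all 66 replication-dependent histone genes and of each type, in the 4 groups (x axis). Points are libraries, lines the group mean and bars 1 SD (n = 3); the SKOV3/DDP libraries with PAE, at 644 to 860 CPM for all 66 genes, lie above the other 9 for the total, H2A, H2B and H4, but not for H1 and H3.

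A few genes held most of these counts. H2BC12 alone held 42.7% of histone counts in untreated SKOV3, 38.2% in SKOV3 with PAE, 39.1% in untreated SKOV3/DDP and 47.2% in SKOV3/DDP with PAE. The 6 genes with the most counts in a group held 83.8% to 90.6%. Per kilobase of the deposited gene length and averaged over the 12 libraries, the order was H2BC12 at 198 CPM per kilobase, H1-2 at 78.6, H2AC6 at 67.3, H2BC5 at 24.0, H2BC21 at 15.3 and H2BC11 at 13.1. At the other end, H1-1, H2AC1 and H2BC1 had no count in any library. A group could still hold such a gene at up to 3 counts, which is 0.0565 to 0.0648 CPM, and this limit covers counting error only. Counts were present in all 12 libraries for 23 genes. The 8 genes whose deposited length ran at least 200 bases past the coding part held 52.1% of histone counts in untreated SKOV3 and 63.0% with PAE, and 71.1% and 74.6% in SKOV3/DDP. For nearly identical copies the counts are uncertain. In 15 genes more than 50% of the 100-base stretches recurred in another gene's transcripts, among them H2AC18 with H2AC19 and H4C11 with H4C12. H3C4 and H2AC7 were also among the 15, but their stretches recurred in genes outside the histone set, not in each other. The deposited model of H3C4 overlaps H2AC7. H2BC12 also overlaps H4C9 on the other strand, and whether counting used the strand is not stated.

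**Figure D2:**
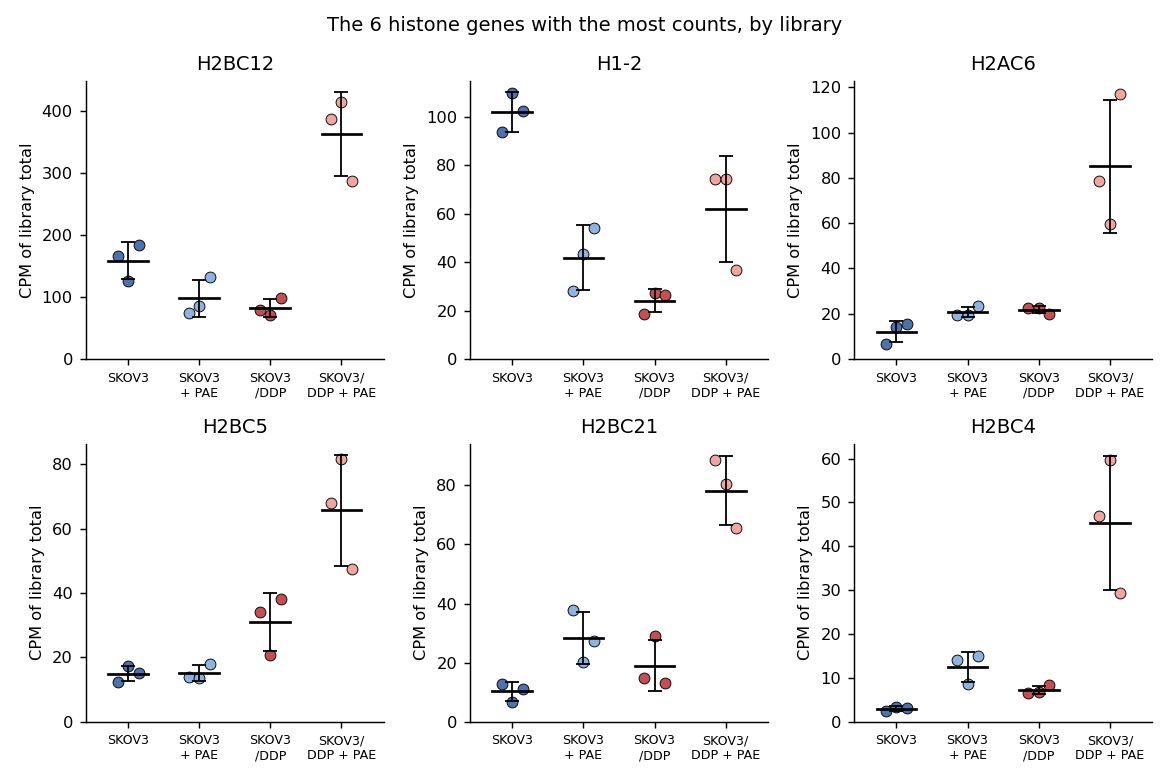
CPM of library total (y axis, from 0) of H2BC12, H1-2, H2AC6, H2BC5, H2BC21 and H2BC4 in each library of the 4 groups (x axis). Points are libraries, lines means and bars 1 SD (n = 3); in all but H1-2 the 3 SKOV3/DDP libraries with PAE are the highest, with H2BC12 at 287 to 415 CPM.

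With PAE, histone transcripts rose in SKOV3/DDP. Of the 35 histone genes that passed the filter on low counts, 19 rose with PAE, none fell, and 16 did not pass the test. Among all 17133 genes tested, 26.4% changed, 11.8% upward and 14.7% downward. The 19 genes came from every type: 2 of 2 H1 genes tested, 5 of 10 H2A, 6 of 11 H2B, 2 of 6 H3 and 4 of 6 H4. By location they were 16 of the 29 tested on chromosome 6 and 3 of the 6 on chromosome 1. Among the 19, H1-4, H2AC15 and H4C5 reached the filter on low counts only with the SKOV3/DDP libraries with PAE included. The calls of these genes are therefore a description. The median log2 fold change over the 35 genes was 1.80, against 0.00 over all genes tested. Calls rest on the quasi-likelihood test of edgeR, at an adjusted p (Benjamini-Hochberg, over all genes) of 0.05. By the criteria in the methods of the study, which ask for a raw p below 0.05 and a log2 change beyond 2 in size, 14 genes were higher and none lower.

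Among the H2B genes, H2BC12 had 78.6, 71.0 and 98.8 CPM without PAE and 389, 415 and 287 with PAE. The groups did not overlap, and the log2 fold change was 1.96 ± 0.24 (SE, adjusted p = 0.000127). H2BC4 had 6.57, 6.74 and 8.32 CPM without PAE and 46.8, 59.6 and 29.3 with PAE. It rose by 2.47 ± 0.30 (adjusted p = 0.000126). H2BC21, on chromosome 1, had 14.7, 28.9 and 13.2 CPM and then 88.6, 80.5 and 65.6, a rise of 1.84 ± 0.35 (adjusted p = 0.00211). These H2B genes shared the direction, and in each the lowest library with PAE was above the highest without. H2BC5 rose least, from 34.1, 20.8 and 38.1 CPM to 67.9, 81.6 and 47.4 (0.92 ± 0.25, adjusted p = 0.0139). This call was lost without replicate 2 of either group (adjusted p = 0.0522 and 0.0582). H2BC17 had 0, 0 and 1 counts without PAE and 24, 24 and 18 with PAE. The ratio of its summed counts per total was 61.7, with a 95% counting interval of 10.7 to 2473 that covers counting error only. The fitted log2 fold change, 5.32 ± 0.84 (adjusted p = 0.000548), was the largest of the histone genes, but for so low a base it depends on the prior count.

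The linker histone H1-2 had 18.5, 27.2 and 26.3 CPM without PAE and 74.5, 74.5 and 36.6 with PAE. It rose by 1.17 ± 0.29 (adjusted p = 0.00941). H1-4, another linker histone, had 1, 3 and 3 counts and then 26, 17 and 24, a rise of 2.93 ± 0.75 (adjusted p = 0.0108) that was lost without replicate 1 of untreated SKOV3/DDP (adjusted p = 0.0554). H1-4 reached the filter on low counts only with the SKOV3/DDP libraries with PAE included, so its values are a description. H1-3 had 1, 2 and 0 counts without PAE and 5, 7 and 3 with PAE, and was too low to test. Among the H2A genes, H2AC6 had 359, 367 and 300 counts without PAE and 1346, 1041 and 1864 with PAE. It rose by 1.80 ± 0.31 (adjusted p = 0.000998), and its groups did not overlap. H2AC8 had 3, 5 and 4 counts and then 26, 21 and 13, and rose as well (adjusted p = 0.00866). H2AC20 had 17, 18 and 12 counts and then 26, 24 and 9, and its log2 fold change was 0.03 ± 0.48.

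Among the H3 genes, H3C4 had 6, 9 and 14 counts without PAE and 101, 167 and 86 with PAE. It rose by 3.30 ± 0.50 (adjusted p = 0.000457). H3C6, whose deposited model is 2700 bases long, had 103, 138 and 172 counts and then 167, 356 and 126, with a log2 fold change of 0.34 ± 0.45. H3C10 had 37, 44 and 41 counts and then 77, 114 and 70, with 0.81 ± 0.32 (adjusted p = 0.0735). H3C10 passed the threshold under DESeq2 (adjusted p = 0.0348), with scaling by library size only (0.0345) and with the GC and length trend removed (0.0298). Among the H4 genes, H4C5 had 6, 7 and 5 counts without PAE and 58, 79 and 57 with PAE, a rise of 3.12 ± 0.56 (adjusted p = 0.00131). H4C5 reached the filter on low counts through the SKOV3/DDP libraries with PAE alone, so its values are a description. H4C8 had 9, 10 and 7 counts and then 42, 60 and 37, a rise of 2.12 ± 0.50 (adjusted p = 0.00673). H4C9 had 8, 41 and 17 counts and then 55, 61 and 23, with 0.75 ± 0.63. H4C11 had 0, 0 and 1 counts and then 1, 20 and 4. Its ratio of 23.4 had a counting interval of 3.83 to 960, and its call was lost without any 1 of the untreated libraries or replicate 2 with PAE (adjusted p = 0.0562 to 0.243).

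**Figure D3:**
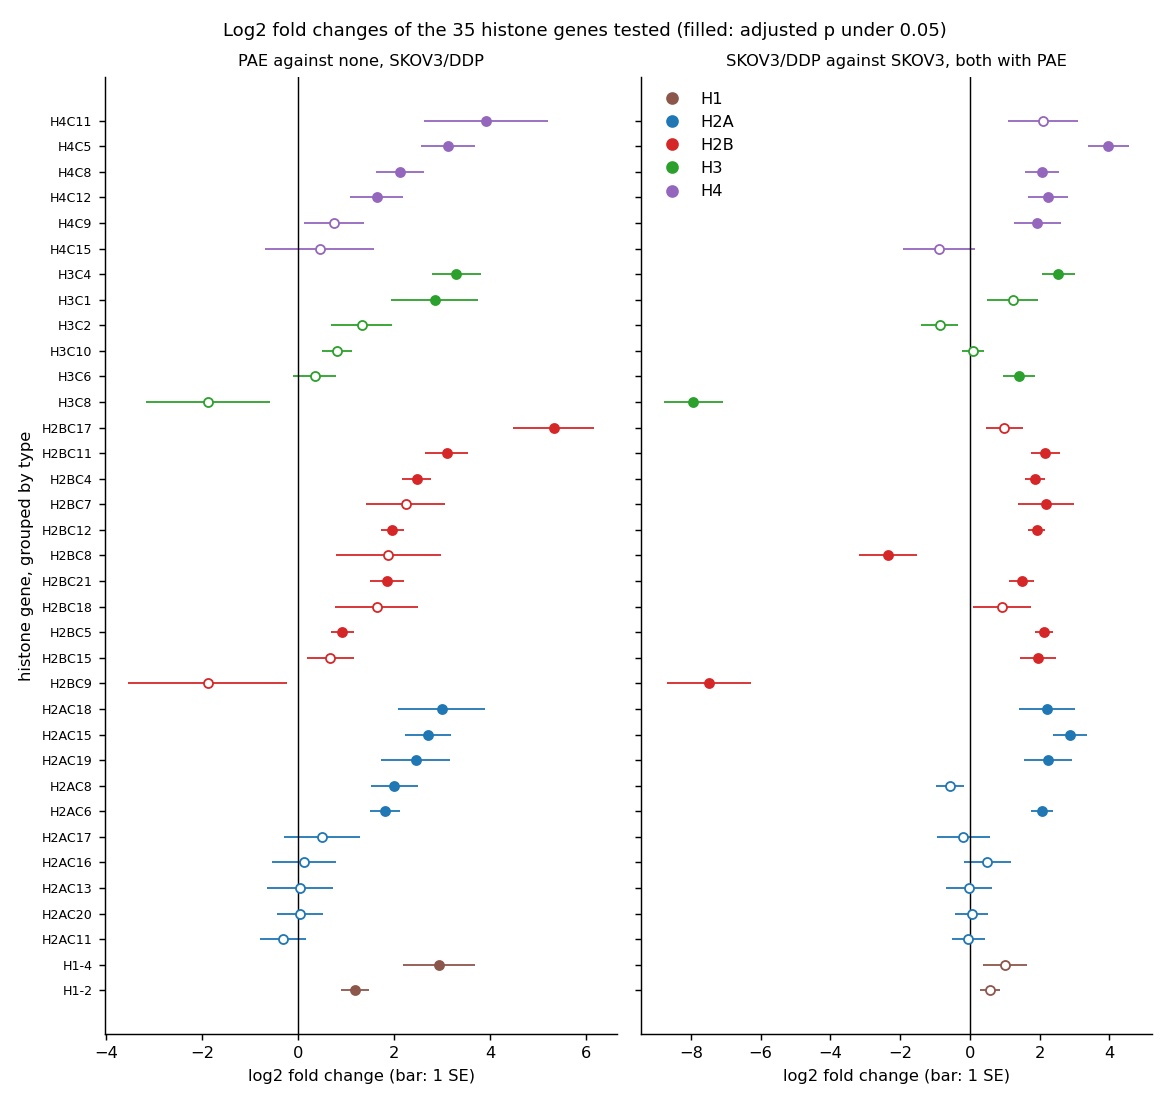
Log2 fold change (x axis) with bars of 1 SE for the 35 histone genes tested (y axis, grouped by type), for PAE against none in SKOV3/DDP on the left and SKOV3/DDP against SKOV3, both with PAE, on the right. Filled points have an adjusted p under 0.05; on the left 19 are filled and all lie to the right of 0, while on the right H3C8, H2BC9 and H2BC8 are filled to the left of 0. The positions of H3C8 and H2BC9 depend on the prior count, since their SKOV3/DDP libraries with PAE hold no count.

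The rise was present under each scaling that was run. With the GC and length trend removed, 21 of the 35 genes were higher and none lower, and all 19 kept their call. The same held for DESeq2, with 20 higher, and for scaling by library size only, with 21 higher, and no gene was lower in either. The median of all genes was 0.16 with scaling by library size only. Without replicate 2 of SKOV3/DDP with PAE the count was 13, and without each of the other libraries it was 14 to 20. Of H3C8 and H2BC9, among the 16 genes that did not pass, both groups were at or under 3 counts, so no fold is given.

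Genes that act on histone genes or their mRNA were set beside these values. Of 16 genes for histone gene transcription and 3′ end processing, 4 rose with PAE in SKOV3/DDP, 1 fell and 11 did not pass the test. HINFP, an activator of H4 genes, rose by 0.93 ± 0.22 (adjusted p = 0.00698), SLBP, which binds the stem-loop, by 0.71 ± 0.22 (0.0262), and ZNF473, which acts with SLBP in the cut, by 1.15 ± 0.41 (0.0498). NPAT, which activates histone genes in S phase, had a log2 fold change of 0.56 ± 0.28 and did not pass. With the GC and length trend removed the split was 6 higher and 3 lower. Of 10 histone chaperones, which carry histones to DNA, ASF1A rose by 1.10 ± 0.26 (adjusted p = 0.00651) and HIRA by 0.99 ± 0.24 (0.00738), and none fell. The chaperones split 2 higher and 1 lower with the GC and length trend removed.

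Genes of S phase were set beside the histone genes in the same way. Of 23 genes of DNA replication and S phase entry, 1 rose with PAE in SKOV3/DDP, 5 fell and 17 did not pass the test. With scaling by library size only the split was 3 higher and 3 lower, and with the GC and length trend removed 3 higher and 4 lower. RRM2, a subunit of ribonucleotide reductase, fell by 1.44 ± 0.24 on the log2 scale (adjusted p = 0.000724), and CCNA2, the S phase cyclin A, fell by 1.07 ± 0.35 (adjusted p = 0.0334). CCNE2, cyclin E2, rose by 1.77 ± 0.45 (adjusted p = 0.0101). PCNA, the sliding clamp of the replication fork, had a log2 fold change of 0.71 ± 0.26 and did not pass. Of 11 replacement and variant histones, which are made outside S phase as well, none rose and 2 fell, MACROH2A2 by 1.38 ± 0.21 (adjusted p = 0.000437) and CENPA, the histone H3 of centromeres, by 0.71 ± 0.23 (0.0362). By DESeq2 and by library size only, 3 of these 11 were higher.

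SKOV3/DDP was compared with SKOV3 where both had PAE, a comparison without the untreated SKOV3 libraries. Of the 35 genes tested, 17 were higher in SKOV3/DDP, 3 were lower and 15 did not pass the test. Among all genes 54.5% differed, 27.5% upward and 27.1% downward. The median log2 fold change of the 35 genes was 1.41, against 0.06 over all genes. H3C8 and H2BC9, without counts in SKOV3/DDP with PAE, lie far below this median, so placing them at their bound could not move it. By type, 4 of 10 H2A, 7 of 11 H2B, 2 of 6 H3 and 4 of 6 H4 genes were higher, while the 2 H1 genes did not pass the test. On chromosome 1 these were 3 of 6 and on chromosome 6 14 of 29. Among the 17, H4C5, H2AC15 and H2BC7 reached the filter on low counts only with the SKOV3/DDP libraries with PAE included. With the GC and length trend removed the split was 18 higher and 3 lower, and with library size only 17 and 3, and in both all 20 genes kept their call.

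H4C5 had 5, 2 and 4 counts in SKOV3 with PAE and 58, 79 and 57 in SKOV3/DDP with PAE. It was higher by 3.98 ± 0.60 (adjusted p = 5.14e-05). H2AC15 had 10, 8 and 8 counts against 66, 82 and 60, higher by 2.87 ± 0.49 (adjusted p = 0.000164). H3C4 had 26, 8 and 21 counts against 101, 167 and 86, higher by 2.54 ± 0.47 (adjusted p = 0.000354). In all 3 the groups did not overlap. Since H4C5 and H2AC15 reached the filter only with the SKOV3/DDP libraries with PAE included, their values are a description. The more abundant H2BC12 (1.92 ± 0.24), H2BC5 (2.14 ± 0.26), H2BC21 (1.48 ± 0.35) and H2AC6 (2.08 ± 0.31) were also higher in SKOV3/DDP. H1-2 had a log2 fold change of 0.59 ± 0.29, and its libraries overlapped, at 27.9, 43.4 and 54.3 CPM in SKOV3 and 74.5, 74.5 and 36.6 in SKOV3/DDP. H2BC8 had 72, 23 and 13 counts in SKOV3 with PAE and 10, 3 and 10 in SKOV3/DDP with PAE. It was lower by the main test (−2.34 ± 0.83, adjusted p = 0.0269), but not without replicate 1 of SKOV3 with PAE (−1.25, adjusted p = 0.229), nor without replicate 1 or 2 of SKOV3/DDP with PAE (0.0547 and 0.0967). In the same comparison the S phase list went the other way, with 0 of 23 genes higher and 20 lower. This count was the same by DESeq2, with library size only and with the GC and length trend removed. The summed CPM of the list was 3377 to 4327 in SKOV3 with PAE and 734 to 879 in SKOV3/DDP with PAE, and the part of this difference in the histone values was not tested. MCM2, a subunit of the replicative helicase, had a log2 fold change of −3.72 ± 0.44 (adjusted p = 5.12e-06), RRM2 had −2.98 ± 0.25 (1.37e-07), and PCNA had −0.51 ± 0.25 and did not pass. Of the 10 chaperones 7 were lower and 2 higher, and of the 16 processing genes 4 were higher and 2 lower, or 5 and 5 with the trend removed. Of the variants 5 were lower and none higher.

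A run of 6 neighbouring histone genes on chromosome 6 was nearly without counts in SKOV3/DDP. This run was singled out after its values were seen. The genes H4C6, H4C7, H3C7, H2BC9, H3C8 and H2BC10 follow each other between positions 26240393 and 26273412 of chromosome 6 on GRCh38, over 33.0 kilobases. Together they had 613 counts in untreated SKOV3 and 190 in SKOV3 with PAE, but 2 in untreated SKOV3/DDP and 0 in SKOV3/DDP with PAE. H3C8, which encodes a histone H3, made up most of them. It had 145, 210 and 215 counts in untreated SKOV3, 21, 48 and 34 in SKOV3 with PAE, 0, 1 and 0 in untreated SKOV3/DDP, and 0, 0 and 0 in SKOV3/DDP with PAE. Per total, its counts in untreated SKOV3 were 506 times those in untreated SKOV3/DDP, with a 95% counting interval of 90.5 to 20033. With PAE they were at least 37.4-fold higher in SKOV3, taking 3 counts over the group as the floor. H2BC9, an H2B gene, had 10, 16 and 6 counts, then 43, 14 and 15 in SKOV3 with PAE, 0, 1 and 0 in untreated SKOV3/DDP, and none with PAE. It was at least 26.2-fold higher in SKOV3 with PAE. Both are among the 3 genes called lower between the lines with PAE, but they passed the filter on low counts through the SKOV3 libraries alone, so their values are given as a description.

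The loci on either side of the run had counts in SKOV3/DDP. The non-coding LOC105374986, which lies within the run, had 147 counts in the 6 SKOV3 libraries and 3 in the 6 SKOV3/DDP libraries. Before the run, H3C6 had 252 counts in SKOV3 and 1062 in SKOV3/DDP, and H1-3 had 20 and 18. Behind it, LOC105374985 had 233 and 1164, and H4C8 had 86 and 165. The other 49 histone genes of chromosome 6 together had 18138, 10205, 8919 and 34872 counts in the 4 groups. Elsewhere on chromosome 6, H3C3 had 20 and 102 counts in SKOV3 without and with PAE, 86 of the 102 in replicate 1, and 1 and 0 in SKOV3/DDP. H1-5 had 6 and 11 against 0 and 0. In all, 6 histone genes had a count in SKOV3 and none in the 6 SKOV3/DDP libraries, and no histone gene had the opposite pattern. These 6 genes were low, from 1 count (H4C6) to 17 counts (H1-5) over the 6 SKOV3 libraries. How often either pattern occurs among all genes was not counted, so this is a description only. The DNA of the lines was not measured, so whether these loci are altered in SKOV3/DDP was not tested.

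**Figure D4:**
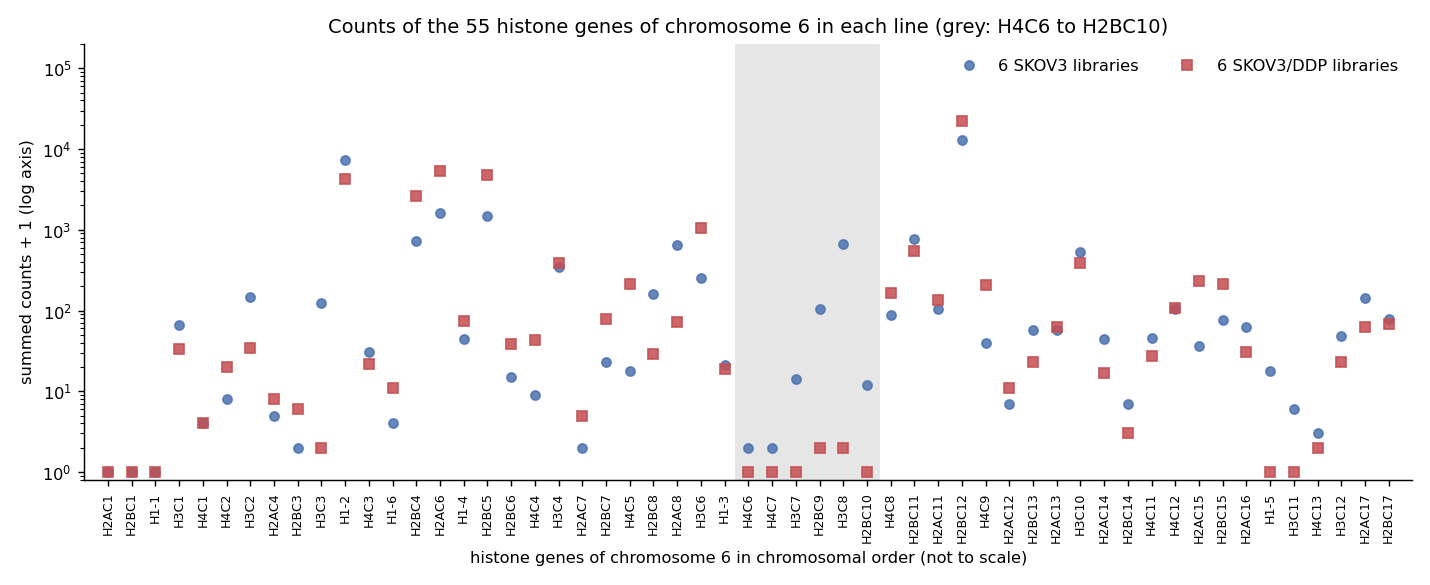
Summed counts plus 1 (y axis, log) of the 55 histone genes of chromosome 6 in chromosomal order, not to scale (x axis), over the 6 libraries of SKOV3 (circles) and the 6 of SKOV3/DDP (squares). In the grey run from H4C6 to H2BC10 the SKOV3/DDP squares stay at 0 or 1 counts while H3C8 reaches 673 in SKOV3; the neighbouring H3C6 and H4C8 have counts in both lines.

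Some H2A and H2B genes lie back to back on opposite strands and share the stretch between their starts. There were 11 such pairs with at most 1000 bases between the starts, and the distance was 193 to 247 bases. In 6 pairs both genes were tested for PAE in SKOV3/DDP, and in 1 of them both rose. That pair was H2BC4 with 339 counts without PAE and 2307 with PAE, and H2AC6 with 1026 and 4251. H2BC12 went from 3888 to 18461 counts, while its partner H2AC12 had 5 and 5 and was too low to test. Beside H2BC21, which went from 902 to 3963 counts, H2AC20 had 47 and 59. Beside H2BC11, singled out after its values were seen, which went from 48 to 490 counts (3.09 ± 0.44, adjusted p = 0.000330), H2AC11 had 68 and 65. Beside H2BC17, which went from 1 to 66 counts, H2AC17 had 22 and 39. In the remaining tested pairs both members had more counts with PAE, but only 1 of each pair was called. H2AC8, called, went from 12 to 60 counts, and H2BC8 from 5 to 23 (1.87 ± 1.09). H2AC15, called, went from 26 to 208 counts, and H2BC15 from 73 to 142 (0.67 ± 0.48). Whether the members of a pair differed was not tested.

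The comparisons that use untreated SKOV3 depend on how the GC trend of those libraries is treated. Between the untreated lines, 24 histone genes were tested, and 17 were lower in SKOV3/DDP, 1 was higher and 6 did not pass the test. Among all genes 84.7% differed, 46.1% upward and 38.5% downward. With the GC and length trend removed, 9 were higher and 3 lower. Of the 18 calls by TMM, 4 kept their call and direction, while the others lost the call or turned. With library size only 5 were higher and 16 lower. Over the 24 genes the median log2 fold change was −2.52, and that of all genes was 0.41 by TMM and 1.16 by library size only. For PAE in SKOV3, 19 of 35 genes were lower, 2 were higher and 14 did not pass, against 75.3% of all genes changed, 42.6% upward and 32.7% downward. With the trend removed 18 were higher and 2 lower, and with library size only 6 and 12. The median of the 35 genes was −1.07, and that of all genes was 0.48 by TMM and 1.36 by library size only. For the difference of the PAE effect between the lines, 21 genes were higher in SKOV3/DDP, 1 was lower and 13 did not pass, against 62.9% of all genes, 25.5% upward and 37.4% downward. With the trend removed 9 were higher and 6 lower, and with library size only 16 and 1. The median of the 35 genes was 2.37, and that of all genes −0.62 and −1.30. These 3 comparisons share the untreated SKOV3 libraries.

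**Figure D5:**
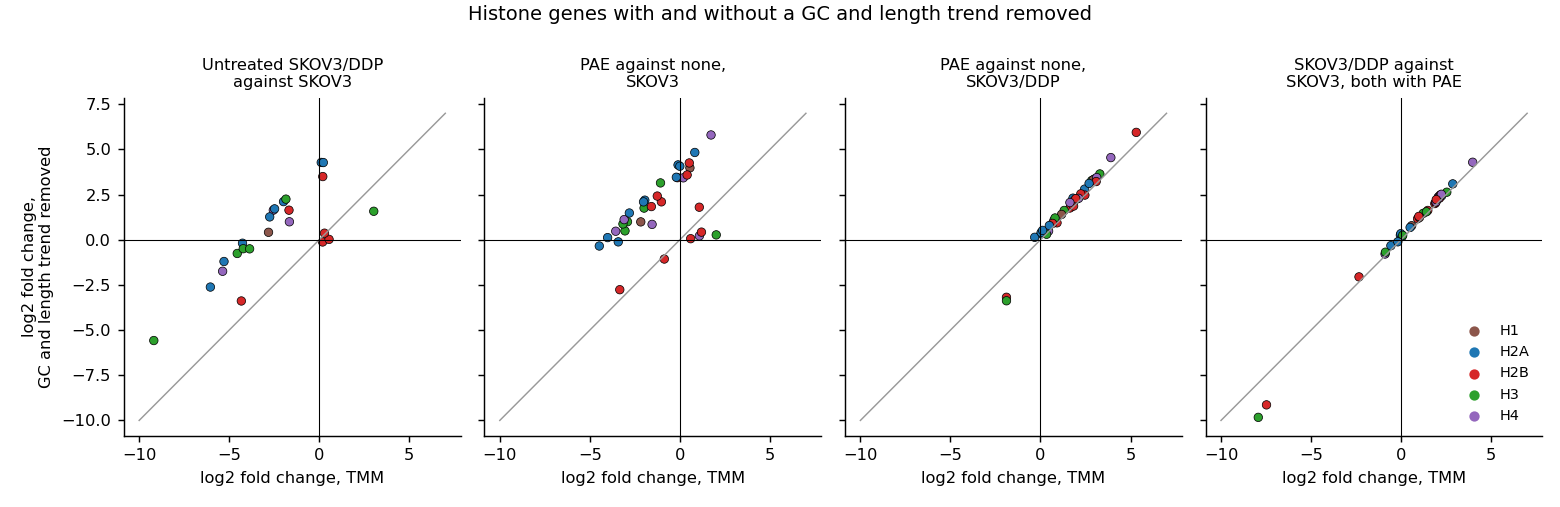
Log2 fold change of each histone gene tested by TMM scaling (x axis) against the same with a GC and length trend removed from each library (y axis), in 4 comparisons, coloured by type, with the grey line of equal values. In the 2 comparisons with untreated SKOV3 on the left nearly all genes lie above the line and many cross 0, so 17 lower calls become 3 and 19 become 2; in the 2 on the right the genes lie close to the line.

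Single genes show the same dependence. H2BC12 had 167, 125 and 184 CPM in untreated SKOV3 and 78.6, 71.0 and 98.8 in untreated SKOV3/DDP. It was lower in SKOV3/DDP by TMM (−1.68 ± 0.19, adjusted p = 4.52e-05) and higher with the trend removed (1.64, adjusted p = 0.000510). In SKOV3 with PAE it had 74.9, 86.1 and 132 CPM, −1.58 ± 0.24 against untreated SKOV3 by TMM and 1.84 with the trend removed. H1-2 had 93.6, 110 and 102 CPM in untreated SKOV3 and 27.9, 43.4 and 54.3 with PAE, −2.17 ± 0.30 by TMM and 0.99 with the trend removed. For both genes every untreated SKOV3 library lay above, except that 1 H2BC12 value of SKOV3 with PAE overlapped, and the direction turned once the trend was removed. H3C10 (113, 89 and 96 counts in untreated SKOV3 and 37, 44 and 41 in untreated SKOV3/DDP), H2AC20 (47, 42 and 37 against 17, 18 and 12) and H4C8 (11, 28 and 17 against 9, 10 and 7) turned in the same way (2.25, 2.11 and 1.00 with the trend removed).

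For other genes the direction between the untreated lines was the same with the trend removed. H2AC8 had 102, 260 and 194 counts in untreated SKOV3 and 3, 5 and 4 in untreated SKOV3/DDP. It was lower by TMM (−6.05 ± 0.49) and with the trend removed (−2.62, adjusted p = 0.000307). H3C8 had 570 counts in untreated SKOV3 and 1 in untreated SKOV3/DDP, and its fitted change was negative by TMM and with the trend removed (−5.58). H2AC8, H3C8 and H4C11 passed the filter on low counts through the untreated SKOV3 libraries alone, so their values are given as a description. The folds of H3C8 and H4C11 also depend on the prior count. H4C11 had 12, 12 and 16 counts against 0, 0 and 1, a ratio of 35.5 (counting interval 6.02 to 1438), and had a log2 fold change of −5.37 ± 0.73 by TMM and −1.74 with the trend removed, which was not called (adjusted p = 0.197). H3C6 was the only gene called higher, at 16, 9 and 9 counts against 103, 138 and 172 (3.03 ± 0.40, adjusted p = 0.000119), and it stayed higher with the trend removed (1.58, adjusted p = 0.00495).

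With PAE in SKOV3, H3C6 had 121, 53 and 44 counts, higher by 2.02 ± 0.52 (adjusted p = 0.00255) and at 0.27 with the trend removed (adjusted p = 0.689). H2BC4 had 41, 62 and 54 counts in untreated SKOV3 and 204, 138 and 232 with PAE, higher by 1.20 ± 0.30 (adjusted p = 0.00221) but not with the trend removed (adjusted p = 0.250). H2AC18 had 27, 74 and 15 counts and then 2, 4 and 2 (−4.47 ± 0.79), H2AC19 26, 50 and 20 and then 6, 1 and 2 (−4.01 ± 0.68), and H4C11 12, 12 and 16 and then 3, 0 and 2 (−3.56 ± 0.97). None of these 3 was called with the trend removed. In the lists around the histone genes, the untreated lines differed in 11 higher and 5 lower of the 16 processing genes, 4 and 4 of the chaperones, 7 and 14 of the S phase genes and 0 and 8 of the variants. With PAE in SKOV3 these counts were 11 and 4, 5 and 0, 11 and 5, and 0 and 5. With the trend removed they became 5 and 3, 2 and 2, 0 and 15, and 1 and 9 between the lines, and 6 and 2, 4 and 1, 5 and 1, and 2 and 6 with PAE in SKOV3. For the difference of the PAE effect they were 4 and 10, 1 and 5, 6 and 12, and 3 and 0, and with the trend removed 4 and 7, 1 and 1, 1 and 5, and 6 and 2.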

How the data were processed

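RNA of 12 libraries was sequenced after poly-T capture and NEBNext Ultra preparation. For every library the authors deposited raw, whole counts of each gene beside its length and GRCh38 coordinates. The submitters' processing notes name HISAT2 2.0.5, StringTie 1.3.3b, DESeq2 and edgeR, without saying which made the counts, and the strand of counting is not stated. Loci without a gene name (869, with 0.126% to 0.678% of counts) were left out. Counts were filtered with filterByExpr, scaled by TMM and compared with edgeR 4.0.16 in R 4.3.3 by its 2-sided quasi-likelihood test, adjusted over all genes tested (15323 in the fit of the 6 untreated libraries, 17133 in that of all 12). CPM are of library totals, which were 14610008 to 18263479. Alternatives were DESeq2 1.42.0, library size only, other filters, the criteria of the methods, a replicate block, other libraries in the fit, each library left out, and removal of each library's dependence on GC content and length (splines, 5 degrees of freedom; GENCODE 29 values existed for 88.1% of genes). No 2 libraries of the same group agreed within counting noise. The tests were also run on simulated counts with few changed genes and no GC trend. That run therefore says nothing about how the tests behave under the GC trend of these libraries.

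The genes and lists were chosen with earlier results of these data known. Values are given for the 3 genes of each type with the highest mean CPM and, in each comparison, the 3 called genes with the largest change of each sign. At most 6 genes of each list are named.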

Additional observations from a re-analysis of the deposited data

Results flagged for a closer look

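The PAE effect differed between the lines, by the interaction term of edgeR's fit, for 22 of the 35 histone genes tested. That is 62.9%, the same share as among all genes tested, so the count itself does not set the histone genes apart. By direction, the effect was larger in SKOV3/DDP for 60% of the 35 and smaller for 2.86%. Among all genes these shares were 25.5% and 37.4%. Positive values mean that the log2 fold change was larger in SKOV3/DDP. Among the named H4 genes the difference was 7.47 for H4C11, 3.66 for H4C8 and 2.93 for H4C5. It was 7.46 for H2AC18, 5.42 for H2AC8, 1.98 for H2AC20 and 1.90 for H2AC6. Of the H2B genes, H2BC17 differed by 6.57, H2BC12 by 3.54, H2BC5 by 1.78 and H2BC21 by 1.24. H1-2 differed by 3.34, H3C4 by 6.34 and H3C10 by 1.88. H3C6, at −1.68, was the only gene called with a smaller effect in SKOV3/DDP. The untreated SKOV3 libraries, whose levels follow GC content, enter every one of these values. With the GC and length trend removed, 15 of the 35 genes differed, 9 of them upward, and the values turned to −1.84 for H2AC6, −1.87 for H2AC20, −1.94 for H3C10 and 0.034 for H3C6. H2BC12, at 0.44, and H1-2, at 0.41, were then no longer called. The call was lost for H2BC21 without replicate 1 or 3 of either untreated group, 2 or 3 of SKOV3 with PAE, or 1 or 2 of SKOV3/DDP with PAE (1.03 to 1.27, adjusted p = 0.0539 to 0.0936). It was lost for H3C6 without any of 7 libraries (−1.66 to −0.98, adjusted p = 0.0629 to 0.188, the largest without replicate 1 of SKOV3 with PAE). It was lost for H4C5 without replicate 1 or 3 of untreated SKOV3 (2.51 and 2.55, adjusted p = 0.0885 and 0.0896). H4C5 reached the filter on low counts through the SKOV3/DDP libraries with PAE alone. No group has 4 or more libraries, so single libraries that stand apart were not tested for.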

How the results depend on the processing

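In every setting run, called histone genes were only higher with PAE in SKOV3/DDP, and more were higher than lower between the lines with PAE. With the GC and length trend removed, most calls were higher instead of lower between the untreated lines and for PAE in SKOV3. The split for the difference of the PAE effect went from 21 higher and 1 lower to 9 and 6. Counts that moved by more were those without a filter between the untreated lines (28), those with at least 10 counts in every library (4 between the untreated lines, 5 for PAE in SKOV3, 7 for PAE in SKOV3/DDP, 7 for the difference and 5 between the lines with PAE), and 13 for PAE in SKOV3 by p and fold change. With the trend removed, log2 fold changes between the untreated lines became 0.41 for H1-2, 2.11 for H2AC20, 1.64 for H2BC12, 2.25 for H3C10 and 1.00 for H4C8. For PAE in SKOV3 they became 0.99 for H1-2, 4.14 for H2AC6, 2.19 for H2AC20, 1.84 for H2BC12, 3.15 for H3C10, 0.49 for H3C4, 0.85 for H4C8, 0.12 for H2AC19 and 0.47 for H4C11. For the difference they became −1.84 for H2AC6, −1.87 for H2AC20, 0.034 for H3C6 and −1.94 for H3C10. With library size only, H2AC6 reached 0.78 and H2BC5 0.023 for PAE in SKOV3. The settings differ by construction in the trend or scaling, and no further cause was tested. With a replicate block the counts were 18, 21, 18, 22 and 19 in the order of the comparisons above. Replicate numbers did not pair the libraries: of 18 correlations of deviations between libraries of the same number, 4 were over 0.1 (−0.303 to 0.208). With each library left out, counts were 18 to 22, 19 to 21, 13 to 20, 19 to 24 and 16 to 22. Low counts limit 42 of 66 genes between the untreated lines and 31 elsewhere, which were not tested.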
